A study of Canis lupus familiaris with 36 samples.

Results

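The miR-34 family consists of the mature miRNAs cfa-miR-34a, cfa-miR-34b and cfa-miR-34c, written below without the prefix for dog. The 3 members were taken by name from the deposited count table of canine cardiac tissue, which lists 453 mature miRNAs, and each had a single precursor entry. Small RNA had been sequenced from formalin-fixed, paraffin-embedded (FFPE) tissue of dogs with cardiac hemangiosarcoma (HSA), a malignant tumor of endothelial cells (6 libraries), and from FFPE heart of dogs that died of non-neoplastic causes (6 libraries). Each library came from 1 dog, so replicates were separate animals, and whole tissue was used, tumor and surrounding cells together. Per the study, dogs with HSA were older than control dogs and earlier chemotherapy was not a reason for exclusion. The 18 splenic HSA and 6 splenic control samples of the series were not analysed here.

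For all 12 cardiac libraries, the title and the treatment field of the labels name opposite conditions. The titles were followed, and every direction below would turn if the treatment field were the correct one. Total counts over 1 entry per mature miRNA lay between 5544912 and 9336949 for the control libraries and between 1656084 and 7254770 for the HSA libraries. TMM factors, a scaling built on the assumption that the bulk of miRNAs is not changed, spanned 0.765 to 0.847 in control and 0.944 to 2.07 in HSA. The summed level of the 7 heart muscle miRNAs (among them miR-1, miR-133a and miR-499) was between 162869 and 236166 TMM-normalized CPM (reads scaled to a common library total) in the control libraries and between 778 and 201129 in the HSA libraries. HSA replicate 3 had the lowest muscle level, and its liver-typical miR-122 was at 231287 CPM, against at most 595 CPM in the other 5 HSA libraries. MiR-126, typical of endothelium, was present in every library, at 3040 to 5157 CPM in control and 1167 to 5229 CPM in HSA.

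MiRNAs of the miR-34 family are known as direct transcriptional targets of the tumor suppressor p53. Once loaded into the silencing complex they lower the output of messenger RNAs that drive the cell cycle and survival, such as those for cyclin-dependent kinases, MET and BCL2. MiR-34a has its own gene and is found in most tissues, where it is linked to senescence, and in heart and endothelium to ageing. MiR-34b and miR-34c are made from 1 shared primary transcript and are typical of multiciliated epithelium, brain and testis. In the RefSeq gene table of the dog assembly UU_Cfam_GSD_1.0, MIR34B and MIR34C stood next to each other, between HOATZ and BTG4, and MIR34A stood apart from them, next to GPR157. That assembly differs from the CanFam3.1 genome used by the authors, and no positions are given.

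MiR-34a was the abundant member in both tissues and did not differ between them in edgeR's test. MiR-34c was close to absent from control hearts and was found in all 6 HSA libraries at a low level. MiR-34b was at the limit of detection. Of the 3 members, only miR-34a passed the filter on low counts, and it was not among the 54 miRNAs called, 24.0% of the 225 tested (38 higher in HSA, 16.9%, and 16 lower, 7.11%). A call required that edgeR's quasi-likelihood test gave a p, adjusted by Benjamini-Hochberg, below 0.01 and that the level changed by 1 or more on the log2 scale.

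**Figure D1:**
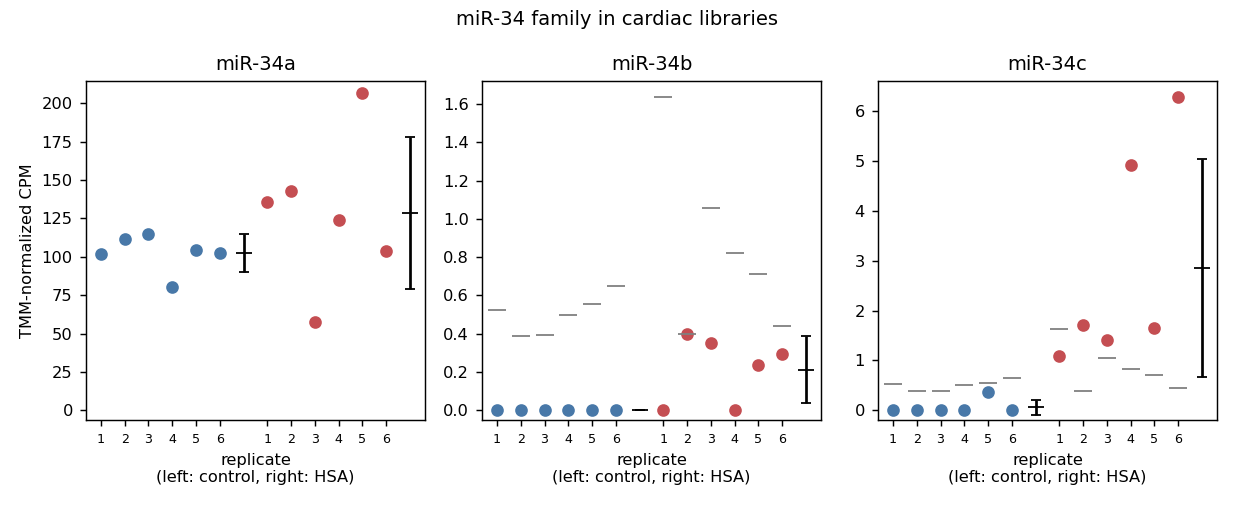
TMM-normalized CPM (y axis, its own scale in each panel) of miR-34a, miR-34b and miR-34c in each library (points, control in blue and HSA in red), with mean and SD of each group in black and, for miR-34b and miR-34c, the level of 3 counts in that library as a grey dash. MiR-34a overlaps between the groups, every miR-34b value lies at or under the level of 3 counts, and every HSA value of miR-34c lies above the control values, with HSA replicate 1 under its own level of 3 counts.

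MiR-34a, the member most closely tied to p53-driven arrest and senescence, had 587, 866, 873, 483, 566 and 474 raw counts in control replicates 1 to 6. In HSA replicates 1 to 6 it had 249, 1084, 163, 453, 874 and 710 raw counts, from smaller libraries. Normalized by TMM, these counts were 102, 112, 115, 80.1, 104 and 102 CPM in control and 136, 143, 57.4, 124, 207 and 104 CPM in HSA. Control replicate 4 was the lowest of its group, and HSA replicates 3 and 5 were the lowest and the highest of all 12 libraries, so the HSA range enclosed the control range. The HSA libraries averaged 129 ± 49.3 CPM (SD, n = 6), the control libraries 103 ± 12.3 CPM (SD, n = 6). EdgeR estimated the log2 fold change at 0.32 with a standard error of 0.26 (edgeR p = 0.239, adjusted p = 0.317), a difference within the spread between libraries. An exact permutation test of log2(CPM + 0.5), two-sided, gave a difference of 0.23 and p = 0.398, or 0.61 adjusted over the 320 miRNAs with a read. By mean level, miR-34a ranked 109 of the 286 miRNAs with a read in control and 124 of 315 in HSA.

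The size of the miR-34a difference depended on the scaling between libraries. In the deposited CPM, which are scaled by library size only, miR-34a was at 56.7, 64.5, 65.2, 47.0, 55.6 and 59.7 CPM in control replicates 1 to 6 and at 106, 221, 55.6, 110, 175 and 68.1 CPM in HSA replicates 1 to 6. On that scale 5 HSA libraries exceeded all 6 control libraries, and HSA replicate 2, with the largest TMM factor, was the highest. With library size only, edgeR put the log2 fold change at 0.99 with a standard error of 0.34 (edgeR adjusted p = 0.0282), again without a call. The median over all tested miRNAs moved with it, from 0.28 under TMM to 0.94 with library size only. MiR-34a stood 0.04 above the median miRNA under TMM and 0.05 above it with library size only. On either scale, the miR-34a difference was thus close to that of the median miRNA of these libraries.

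**Figure D2:**
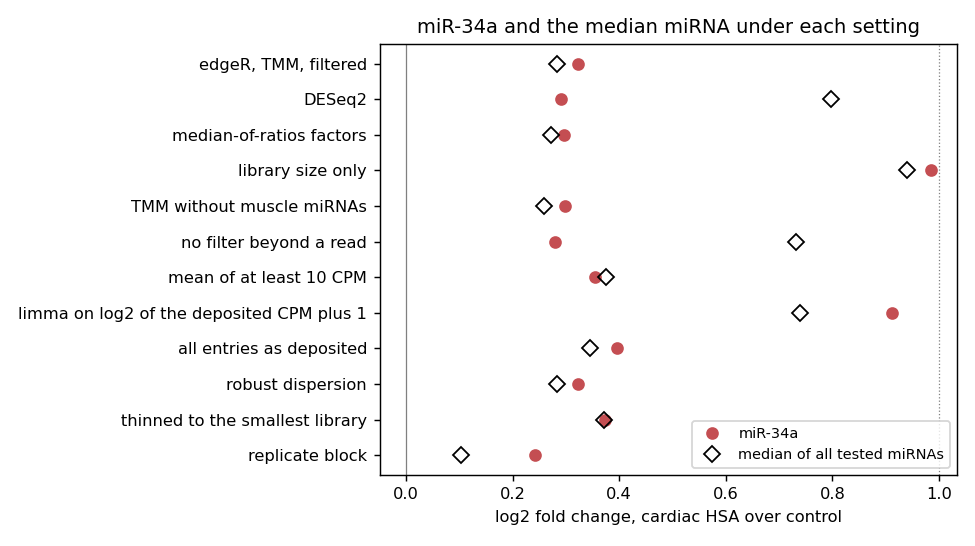
Log2 fold change, cardiac HSA over control (x axis), of miR-34a (red points) and of the median of all tested miRNAs (open diamonds) under the main edgeR setting and 11 alternatives (y axis), with a dotted line at the threshold of 1. MiR-34a stays on the positive side and under the threshold, and lies near the diamond except with DESeq2 and without a filter, where many miRNAs of low count enter the median.

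MiR-34a was more variable among HSA libraries than among control libraries. Its coefficient of variation was 38.3% in HSA and 11.9% in control, and its highest HSA level was 3.61-fold the lowest, against 1.44-fold in control. This greater spread was shared by most miRNAs. The SD of log2(CPM + 0.5) of miR-34a was 0.61 in HSA and 0.18 in control, the medians over all tested miRNAs were 0.74 and 0.31, and 202 of the 225 had the larger SD in HSA. HSA replicate 3, the lowest in miR-34a, was also the library with the lowest muscle and the highest miR-122 level. Without it the log2 fold change of miR-34a was 0.45 (adjusted p = 0.0817 from edgeR). HSA replicate 5, the highest in miR-34a, had the highest summed level of epithelial miRNAs, 17404 CPM, and without it the log2 fold change was 0.13 (adjusted p = 0.665 from edgeR). The part of these other tissues in the miR-34a level was not tested.

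The miRNAs with profiles nearest to that of miR-34a were sought among all tested miRNAs. Nearness was the root-mean-square difference between profiles of log2(CPM + 0.5) over the 12 libraries, each profile centred on its own mean. A miRNA that varies little can also be near, so a small difference need not mean that 2 miRNAs rose and fell together. MiR-339, for example, averaged 1577 ± 150 CPM (SD) in HSA and 1317 ± 118 CPM (SD) in control. The nearest was miR-181d, with a difference of 0.33, followed by miR-181c with 0.37. MiR-339 came next with 0.44, then miR-29a and miR-29b with 0.45 each, while the median over all tested miRNAs was 0.86. Like miR-34a, miR-181c and miR-181d fell below their own mean in HSA replicate 3 and were not called, with log2 fold changes of 0.18 and 0.11 (adjusted p = 0.62 and 0.713 from edgeR). These profiles share library size and composition, and the distances are given as a description.

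**Figure D3:**
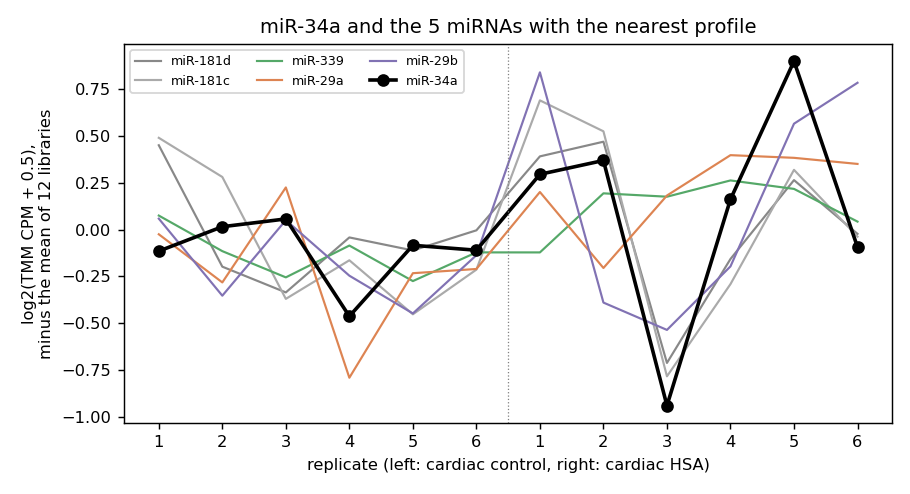
Log2(TMM CPM + 0.5) of miR-34a (black) and of the 5 miRNAs with the nearest profile (coloured lines), each minus its mean over the 12 libraries (y axis), for control replicates on the left and HSA replicates on the right of the dotted line. MiR-34a, miR-181c and miR-181d share the drop in HSA replicate 3.

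MiR-34c, 1 of the products of the miR-34b/c transcript, had 0, 0, 0, 0, 2 and 0 raw counts in control replicates 1 to 6. In HSA replicates 1 to 6 it had 2, 13, 4, 18, 7 and 43 raw counts. Reads were present in 6 of 6 HSA libraries and in 1 of 6 control libraries, and more than 3 counts, the level taken here as the limit of a library, were reached in 5 HSA libraries and no control library. HSA replicate 1, the smallest library, had as few counts as control replicate 5. Summed over libraries, miR-34c made up 87 of 21798816 counts in HSA, 3.99 CPM (unscaled, exact 95% binomial interval 3.20 to 4.92), and 2 of 45426070 counts in control, 0.044 CPM (interval 0.00533 to 0.159). Such intervals reflect the error of counting alone, and copies made by PCR do not stand for separate molecules. They leave out the spread between dogs. Single HSA libraries ran from 1.21 to 5.93 CPM (unscaled), and HSA replicate 6 held 43 of the 87 counts. The HSA libraries, in which more reads were found, were the shallower group, with a median total of 3375291 counts against 7177953 in control.

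Normalized by TMM, miR-34c was at 1.09, 1.72, 1.41, 4.92, 1.66 and 6.28 CPM in HSA replicates 1 to 6 and at 0.369 CPM in control replicate 5. The mean in HSA was 2.85 ± 2.19 CPM (SD, n = 6), and replicates 4 and 6 stood above the other 4 HSA libraries. All 6 HSA values lay above all 6 control values. This was so for 9.38% of the 320 miRNAs with a read (9.69% had all HSA values below), and for 2.11% of the 95 with a read that did not pass the filter, a count of 2, the other being miR-188. The exact permutation test, two-sided, gave a difference of 2.38 on the log2(CPM + 0.5) scale and p = 0.00216, the smallest that 6 libraries against 6 allow, or 0.0114 adjusted over the 320 miRNAs. At an adjusted p under 0.05 this test passed 33.1% of the miRNAs, 18.4% being higher in HSA. Taking 3 counts as the highest level that each control library could hold unseen, a bound was set for the HSA mean of miR-34c. That mean was at least 5.68-fold higher by TMM-normalized CPM and at least 8.67-fold higher by deposited CPM. The bound takes no account of the spread between HSA libraries and does not hold for each of them. By TMM, the HSA median was 1.69 CPM, against a mean control level of 0.501 CPM for 3 counts.

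Model fits that admitted miR-34c also placed it higher in HSA. DESeq2, the tool of the study, called it (adjusted p = 2.54e-05), as it did 16.5% of its 309 tested miRNAs in that direction and 23.9% in either. EdgeR without the filter called it as well (adjusted p = 0.00391), as it did 11.9% of 320 in that direction and 16.2% in either. Their log2 fold changes, 5.63 and 5.14, depend on how zeros are treated and are not bounds. When each library was left out of the edgeR fit without a filter, the call was lost in 5 fits, those lacking control replicate 1, 2, 3, 4 or 6 (edgeR adjusted p between 0.0106 and 0.0121), and kept in the other 7 fits. With every library thinned to the total of the smallest, HSA replicates 1 to 6 kept 2, 7, 1, 7, 4 and 8 counts of miR-34c, and all 6 control libraries were at 0.

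MiR-34b, the partner of miR-34c on the same transcript, had 0, 3, 1, 0, 1 and 2 raw counts in HSA replicates 1 to 6 and 0 in each control library. No library exceeded 3 counts, so no fold is given. Over the group, 7 of 21798816 counts in HSA were miR-34b, 0.321 CPM (unscaled, exact 95% binomial interval 0.129 to 0.662), while for the 0 of 45426070 in control the upper bound of the same interval was 0.0812 CPM (0.066 CPM at 3 counts). The exact permutation test gave p = 0.0606, or 0.14 adjusted over the 320 miRNAs, and a difference of miR-34b between the tissues was not detectable at this depth. In edgeR without the filter its adjusted p was 0.028 and in DESeq2 0.416, neither of them a call. Because miR-34b and miR-34c are alike in sequence, a read could have been assigned to either. Their summed counts were 2, 16, 5, 18, 8 and 45 in HSA replicates 1 to 6, and 2 in control replicate 5 against 0 in the other 5 control libraries. The sum does not depend on how reads were split between miR-34b and miR-34c. Assignment of reads from other relatives, such as miR-34a, was not tested.

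The balance of the family was also compared inside each library, where no scaling between libraries enters. Per 1000 miR-34a reads there were 8.03, 12.0, 24.5, 39.7, 8.01 and 60.6 miR-34c reads in HSA replicates 1 to 6. Control replicate 5 had 3.53, and the other 5 control libraries had none, where 3 counts would have been 3.44 to 6.33 per 1000. Every HSA library had more miR-34c per miR-34a than any control library. The log2 ratio of miR-34c to miR-34a, with 0.5 added to each count, was -5.61 ± 1.17 (SD, n = 6) in HSA and -9.89 ± 1.09 (SD, n = 6) in control. The difference was 4.28 (exact permutation test, two-sided, p = 0.00216, the smallest possible). It was 2.39 with 3 added to each count and 2.41 with every library thinned to the smallest total. In the 5 control libraries without a miR-34c read, the ratio was set by the added 0.5 and the miR-34a count. The control mean and the size of the difference thus depend on the added value and on depth. MiR-34a remained the main product throughout, with 94.0% to 99.2% of family reads in HSA and at least 99.6% in control.

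**Figure D4:**
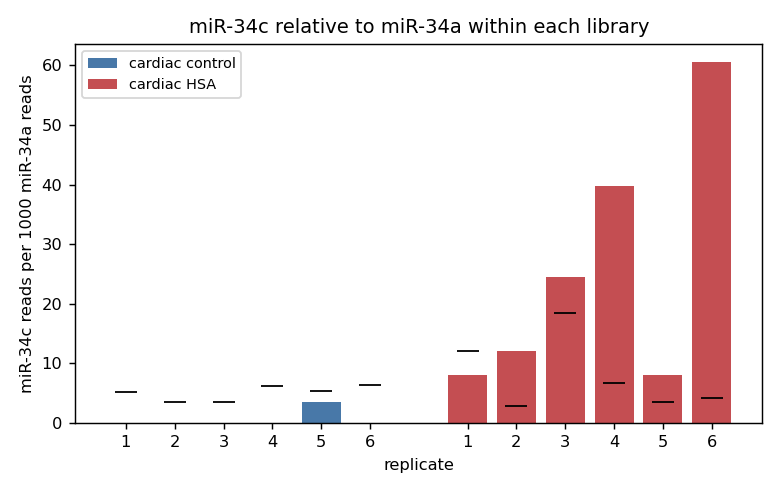
MiR-34c reads per 1000 miR-34a reads (y axis) in each control (blue) and HSA (red) library, with a black dash at the value that 3 miR-34c counts would give. HSA replicates 4 and 6 reach 39.7 and 60.6, the only control bar is replicate 5 at 3.53, and HSA replicate 1 lies under its dash.

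MiR-449a and miR-449b share the seed of the miR-34 family and are typical of multiciliated epithelium, where they act on many of the same messenger RNAs. In the RefSeq table MIR449A and MIR449B were neighbours, close to the ciliary genes CDC20B and MCIDAS. MiR-449a had 12, 9, 0, 1, 0 and 1 raw counts in HSA replicates 1 to 6 and 1, 0, 0, 0, 3 and 1 in control replicates 1 to 6. Its 2 highest libraries were HSA replicates 1 and 2, while HSA replicate 6, the highest in miR-34c, had a single count. The groups overlapped, and the exact permutation test of miR-449a gave p = 0.294, or 0.481 adjusted over the 320 miRNAs. MiR-449b had 4 counts in control replicate 4 and 0 in the other 11 libraries. Neither passed the filter, and miR-449c was not in the table.

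Markers of other cell types differed between the groups along with miR-34c. The 8 epithelial miRNAs (such as miR-200c, miR-203 and miR-375) had a summed level of 98.3 to 17404 CPM in HSA and of 12.5 to 29.9 CPM in control. Of the 4 that passed the filter 3 were called higher, beside 16.9% of all tested miRNAs. MiR-200c and miR-429, at means of 2.89 and 0.957 CPM in control, passed it largely through their HSA counts and could hardly have been called lower. Nothing is therefore drawn from setting that count against the share. The calls of miR-203 and miR-375 held with each library left out, and that of miR-200c was lost without any single control library. The 4 blood cell miRNAs (miR-142, miR-150, miR-155 and miR-223) summed to 704 to 4258 CPM in HSA and 367 to 534 CPM in control. Of the 4, 3 were called higher, beside 16.9% of all tested miRNAs. Of the 3 called, miR-223 kept its call with each library left out, miR-142 lost it without control replicate 5, and miR-150 lost it in 9 of the 12 fits (each without HSA replicate 2, 3 or 4 or any control library). MiR-122 was at 84.3 CPM or more in HSA and at 59.0 CPM or less in control. Within the HSA group, no list put the libraries in the same order as miR-34c. The erythroid sum was highest in HSA replicates 4 and 6, at 58985 and 39020 CPM, the same libraries that were highest in miR-34c, and replicate 4 also had the highest blood cell sum. The erythroid sum was 28270 to 40673 CPM in the control libraries, where miR-34c was at or near 0. HSA replicate 6, with the highest miR-34c, had 125 CPM of epithelial miRNAs, the second lowest of the group, and 201129 CPM of muscle miRNAs, within the control range. HSA replicate 5, with the highest epithelial level, had 1.66 CPM of miR-34c. The 7 muscle miRNAs were not called in either direction (1 of them, miR-208b, was lower at an unadjusted p under 0.05 in edgeR, and none was called by DESeq2). Their median log2 fold change was nevertheless -1.28, against 0.28 over all tested, and their summed level ranged widely in HSA, from 778 to 201129 CPM. The 4 of fibroblasts and smooth muscle and miR-126 were not called either. Of the 4 erythroid entries, miR-144 was called higher, a call lost in 9 of the 12 fits that left out a library (kept without HSA replicate 5 or 6 or control replicate 3), and miR-486-3p was called lower, which held in all 12. Of all tested miRNAs, 16.9% were called higher and 7.11% lower. In tissue of mixed cells, fewer cells of a type and less miRNA per cell cannot be told apart, and the part of each cell type in the miR-34c level was not tested.

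**Figure D5:**
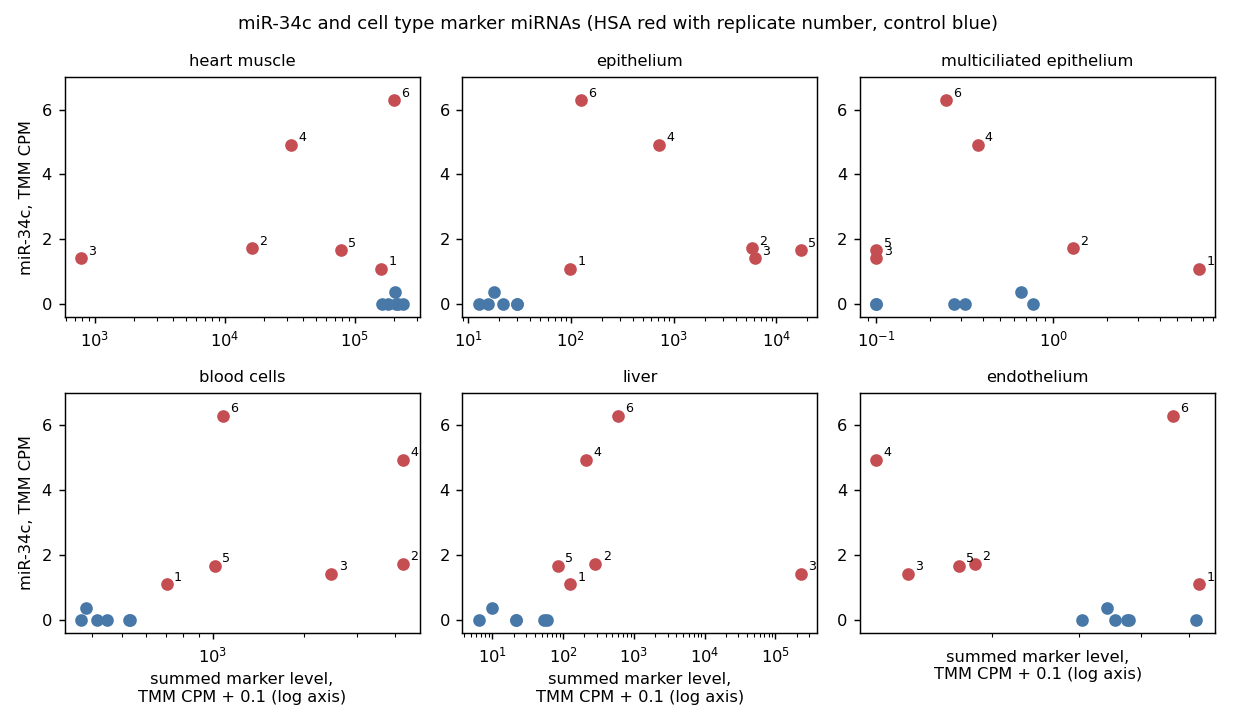
TMM-normalized CPM of miR-34c (y axis) against the summed level of 6 lists of cell type marker miRNAs (x axis, log scale, 0.1 added) in each library, with control in blue and HSA in red with its replicate number. HSA replicates 4 and 6 are the highest in miR-34c and differ widely in the muscle and endothelial lists, and the HSA and control points are separated along the epithelial, blood cell and liver axes.

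Other miRNAs of the p53 network were followed in a pair of lists from general knowledge. Of 16 miRNAs reported as raised or processed under p53, 15 were in the table and 12 passed the filter. Of these, 4 were called higher and 0 lower, beside 16.9% and 7.11% of all tested miRNAs. MiR-215, miR-429 and miR-200c averaged 1.06, 0.957 and 2.89 CPM in control and passed the filter largely through their HSA counts. Such members could be called higher but hardly lower, so nothing is drawn from setting these counts against the shares. Their median log2 fold change was 0.30, against 0.28 over all tested. The 4 were miR-192 (log2 fold change 3.92), miR-194 (4.1), miR-215 (6.21) and miR-200c (7.06), with adjusted p from 0.00465 to 0.00679 in edgeR. All 4 are also typical of epithelia, miR-192, miR-194 and miR-215 of gut, liver and kidney. Leaving out any single control library ended the call of each of the 4, and leaving out HSA replicate 5 ended that of miR-215. The size of the change also rested on single libraries. Without HSA replicate 3, the log2 fold change was 2.66 for miR-192 and 3.04 for miR-194, and without HSA replicate 5 it was 3.02 for miR-215 and 4.56 for miR-200c. None of the 12 was lower at an unadjusted p under 0.05 in edgeR, where miR-429 was the fifth that was higher. DESeq2 called 5 of the list higher (miR-141, miR-192, miR-194, miR-200c and miR-429) and 0 lower, beside 51 and 23 of its 309 tested miRNAs. MiR-141 was not among the 12, and miR-215 was not called by DESeq2. MiR-143, miR-145 and miR-16, whose processing is linked to p53, had log2 fold changes of -0.10, 0.16 and -0.16 and were not called, and neither was miR-107, which is raised by p53, at 0.08. The other members not called were miR-22 at -0.36, miR-149 at -0.47, miR-15a at 0.44 and miR-429 at 6.09 (adjusted p = 0.011 from edgeR).

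Of 9 miRNAs reported to act on p53 itself, 8 passed the filter, of which 4 were called lower and 1 higher, beside 7.11% and 16.9% of all tested miRNAs. Their median log2 fold change was -0.82, against 0.28 over all tested. MiR-125b and miR-125a, which bind p53 messenger RNA, fell by 1.80 and 1.83 on the log2 scale, and miR-504 and miR-30d, which do so as well, fell by 1.95 and 1.99. Their adjusted p ran from 0.000983 to 0.00517 in edgeR. The calls of miR-125a, miR-125b and miR-504 held with each library left out, and that of miR-30d was lost without HSA replicate 1, 2 or 4 or control replicate 1, 2, 4 or 5. The 4 were also lower, and called, with library size only and with DESeq2. MiR-122, the member called higher (log2 fold change 10.40, adjusted p = 0.00627 in edgeR), stood at 3.17 once HSA replicate 3 was removed, lost its call on removal of any single control library, and was not called by DESeq2. MiR-25 was at 0.17, and miR-33a and miR-380, at 1.47 and 2.56, had adjusted p of 0.0298 and 0.0605.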

How the data were processed

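The authors isolated total RNA from FFPE tissue, made small RNA libraries of the cardiac samples (NEXTflex kit per the methods, another kit per the labels), trimmed adapters (Cutadapt), mapped reads to the CanFam3.1 genome (Bowtie) and assigned them to miRBase annotation (HTSeq). The authors deposited raw counts for each pair of mature miRNA and precursor. A second table that the authors deposited holds CPM, scaled to the total of all 517 entries and without a composition factor. Recomputed CPM differed by at most 0.00499. Where a mature miRNA had several entries, that with most reads in total was used, which left 453 mature miRNAs, 320 of them with a read. No column was left out.

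The 12 cardiac libraries were grouped by title. EdgeR 4.0.16 in R 4.3.3 was run on all mature miRNAs (TMM, filterByExpr, quasi-likelihood F test, Benjamini-Hochberg over 225), with standard errors derived from the fold change and F. The exact permutation test went over all 924 divisions of the libraries, with a threshold of 0.05, in Python 3.11.15. Alternatives used DESeq2 1.42.0 and limma 3.58.1 and are given in the closing section. The fits were tested on simulated data with known changes. EdgeR called 28 of 45 changed miRNAs with 0 false calls, and without the filter 26 of 60 with 0 false calls. DESeq2 called 31 of 60 with 2 false calls. A miRNA that was not called may therefore still have changed. Members and lists were chosen with earlier results of these data known. Besides members, same-seed relatives and lists, the text names the 5 miRNAs nearest in profile to each member that passed the filter. Called miRNAs of the p53 lists are named by rule, and other members of these lists were chosen after their values were seen.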

Additional observations from a re-analysis of the deposited data

Results flagged for a closer look

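In groups of 6 libraries, a library was singled out when its gap to the nearest other one was large relative to the whole range of the group (Dixon's criterion at 95%), which chance alone gives in about 1 of 20 groups. For miR-34a this concerned control replicate 4, the lowest of its group with 80.1 CPM (TMM-normalized). For miR-34c it concerned control replicate 5, with 0.369 CPM, the only control library with a read, and so the log2 ratio of miR-34c to miR-34a of that library, -7.82. The latter pair rests on the same 2 counts. With every other control library at 0, any read of miR-34c would have been singled out. The rate of about 1 of 20 therefore does not apply to this pair.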

How the results depend on the processing

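MiR-34a stayed higher in HSA and not called under all 24 alternatives, with log2 fold changes from 0.13 to 0.99 and adjusted p from 0.0282 to 0.675, and from 0.13 to 0.45 with each library left out. MiR-34b and miR-34c had no value in the planned fit with the filter and all libraries, so the fits without it are given for them. MiR-34c was called with DESeq2 (log2 fold change 5.63) and with edgeR without a filter (5.14) and, in alternatives chosen after the data were seen, without a filter with library size only (5.64) or with thinned counts (5.08). Leaving out 1 library gave 4.72 to 6.92. In 2 of these fits miR-34c also passed the filter, through its HSA counts, and nothing is drawn from them. Fitted folds of miR-34b and miR-34c depend on how zeros are treated. MiR-34b was not called in any of the 16 fits that admitted it, with adjusted p from 0.0189 to 0.416. Limma, the median-of-ratios factors, TMM without muscle miRNAs, the filter at 10 CPM, all entries, the robust dispersion and the replicate block kept the filter and gave no value for miR-34b and miR-34c. The log2 ratio of miR-34c to miR-34a differed by 3.97 to 4.70 with each library left out, by 2.39 with 3 added and by 2.41 with thinned counts. The exact permutation tests kept their side of the threshold on deposited CPM, with a pseudocount of 1 CPM and with thinned counts. For miR-34a this was narrow on deposited CPM, where the test gave a difference of 0.92 and an adjusted p of 0.0524. With TMM-normalized CPM that adjusted p was 0.61. The number of called miRNAs was 54, or 21 to 63 with each library left out, with 27, 30, 26, 21 and 35 without control replicates 1, 2, 4, 5 and 6. With library size only the calls were 64 higher and 5 lower, against 38 and 16 under TMM. The replicate block, in which equal replicate numbers were treated as pairs, gave 11 calls and a log2 fold change of 0.24 for miR-34a (adjusted p = 0.541). The numbers do not pair dogs, the correlations of the deviations of same-numbered libraries ran from -0.27 to 0.06, and 0 of 6 HSA libraries correlated best with their own number. Depth limits miR-34b and miR-34c, since 3 counts correspond to 0.414 to 1.81 CPM in HSA and 0.321 to 0.541 in control.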
